A study of Sus scrofa with 8 samples.

Results

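The expression of 5 antigen presentation genes, TAP1, TAP2, TAPBP, CIITA and SLA-DQB1, was examined in porcine liver. They are the members of a list of 10 symbols of the major histocompatibility complex (MHC) class I and class II pathways that have an Ensembl pig identifier in the mRNA table, which lists 21607 identifiers. The other 5 symbols, B2M, NLRC5, CD74, SLA-DRA and SLA-1, were joined to no identifier of the table under these symbols. The gene of SLA-DRA, the alpha chain of DR, is named there by the human symbol HLA-DRA and is described apart from the 5, and the other 4 are not analysed here. The levels come from the livers of healthy female pigs of an indigenous Chinese breed, named Yana in the labels and Yanan in the methods. The young group was 2 sows 180 days old, and the old group was 2 sows 8 years old. The sows were unrelated over recent generations, were fasted overnight before slaughter, and each liver gave 1 rRNA-depleted RNA-seq library. The young sows had borne no litter and the old sows had been bred for many years, so age and reproductive history cannot be told apart.

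MHC class I molecules present peptides from inside the cell to CD8 T cells. The peptides are cut by the proteasome, pumped into the endoplasmic reticulum by the TAP1 and TAP2 transporter, and loaded with the help of tapasin, the product of TAPBP. MHC class II molecules present peptides from the endosome to CD4 T cells, and their genes are switched on by the transactivator CIITA. In the liver, Kupffer cells and other antigen-presenting cells are known for class II, while class I is found on most cells. Many genes of the class I pathway are known to be induced by interferons. In pig, MHC genes carry the prefix SLA, for swine leukocyte antigen.

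All values are CPM, reads of a gene scaled to a fixed library total, and no gene length enters them, so levels are compared between livers and not between genes. Young libraries held 37555696 and 37125093 recovered reads on mRNAs, and old libraries 22482241 and 24866406. More mRNAs were above 0 in the old livers, 17262 and 16978 against 15230 and 14291 in the young livers. Each group holds 2 animals. Intervals on single values cover counting error only. In whole liver, a change in the share of a cell type and a change in RNA per cell cannot be told apart.

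The 5 genes were all higher on average in old livers, under each scaling tried, as were 47.1% of all mRNAs tested (56.9% after rescaling to equal totals of mRNA reads), and they fell into 2 patterns. CIITA, TAPBP and SLA-DQB1 were higher in both old livers, whereas TAP1 and TAP2 were far higher in old replicate 1 than in the other 3 livers. None of the 5 passed the thresholds of an adjusted p-value under 0.05 and an absolute log2 fold change above 1 in limma, where 0% of the 16898 mRNAs tested were called. The smallest adjusted p-value over all mRNAs was 0.213. Dispersion is the spread between livers beyond counting error. In simulated counts with a dispersion of 0.02, limma called 91.5% of 200 mRNAs changed by a log2 fold of 3. At dispersions of 0.10 and 0.40 it called 0.0% of them, and the common dispersion of these data was 0.463 in edgeR. The absence of limma calls therefore says little about any gene.

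**Figure D1:**
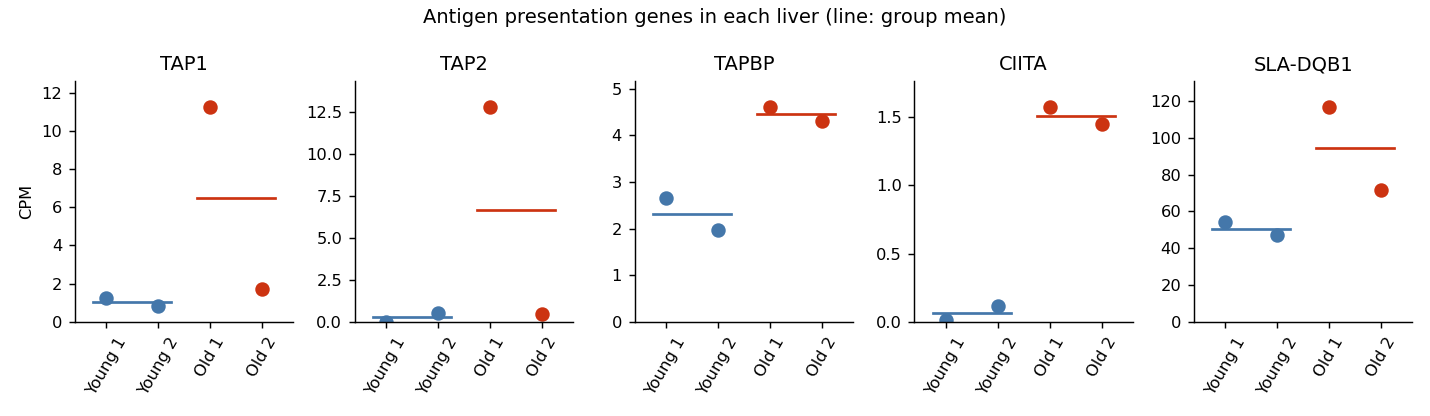
Deposited value (CPM, each vertical axis from 0 and with its own scale) of TAP1, TAP2, TAPBP, CIITA and SLA-DQB1 in the 4 livers, with young livers in blue, old livers in red and a line at each group mean. CIITA, TAPBP and SLA-DQB1 lie higher in both old livers, and TAP1 and TAP2 stand out at 11.3 and 12.8 CPM in old replicate 1.

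CIITA (ENSSSCG00000007901), the transactivator of class II genes, was at 0.011 CPM in young replicate 1 (1 read) and 0.116 in young replicate 2 (10 reads). In old replicates 1 and 2 it was at 1.58 CPM (97 reads) and 1.45 CPM (104 reads). Both old livers lay above both young livers, and the lower old value was 12.5 times the higher young value. The exact 95% Poisson interval of the higher young value ended at 0.213 CPM, and that of the lower old value began at 1.18 CPM. The group means were 0.0635 ± 0.0742 CPM in young and 1.51 ± 0.0905 CPM in old livers (SD, n = 2 each). The log2 fold change on log2(CPM + 1), a scale on which the change of a low gene is understated, was 1.24 (standard error [SE] 0.12, 95% interval 0.86 to 1.62, limma unadjusted p = 0.00146, adjusted p = 0.213). On the recovered reads, edgeR's exact test gave a log2 fold change of 4.72 with an adjusted p-value of 0.0390, a call that 2.68% of the mRNAs tested also received as higher. DESeq2 gave 4.73 with an adjusted p-value of 0.00544, with 4.04% of the mRNAs called higher. The quasi-likelihood test of edgeR called no mRNA, with 11.5% of them higher at an unadjusted p-value under 0.05. Among all mRNAs tested, 65 (0.385%) were at 1 CPM or more in both old livers and at least 10 times the higher young liver, as CIITA was. Both cutoffs lie below the values of CIITA and were not part of the plan, so this share is descriptive only. Over the alternatives that tested CIITA its adjusted p-value ranged from 0.00544 to 0.425. The larger number of mRNAs above 0 in the old livers went in the same direction, and its part in this difference was not tested.

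TAPBP (ENSSSCG00000001507), the peptide-loading chaperone tapasin, measured 2.66 and 1.98 CPM in young sows (244 and 171 reads), compared with 4.62 and 4.30 CPM in old sows (284 and 309 reads). The old livers differed little from each other and both lay above the young livers. Its means were 2.32 ± 0.482 and 4.46 ± 0.221 CPM (SD, n = 2 each), a ratio of 1.92. The log2 fold change was 0.73 (SE 0.16, 95% interval 0.24 to 1.22, limma unadjusted p = 0.0171, adjusted p = 0.247). CIITA and TAPBP were thus the 2 genes of the 5 with an unadjusted p-value under 0.05, a level reached in the higher direction by 6.78% of all mRNAs tested.

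SLA-DQB1 (ENSSSCG00000001457), the beta chain of the class II molecule DQ, measured 54.2 and 47.0 CPM in young sows (4979 and 4072 reads). In old replicates 1 and 2 it was at 117 CPM (7191 reads) and 71.8 CPM (5158 reads). Both old livers lay above both young livers, with old replicate 1 the highest of the 4. The ratio of the group means was 1.86 and the log2 fold change 0.85 (SE 0.30, 95% interval -0.07 to 1.77, limma adjusted p = 0.342), which was 0.50 without old replicate 1. Class II genes of pig are highly variable and have near-identical copies, so how reads were shared among them is uncertain.

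TAP1 (ENSSSCG00000025618), a chain of the peptide transporter, measured 1.24 and 0.832 CPM in young sows (114 and 72 reads). It was at 11.3 CPM in old replicate 1 (693 reads) and at 1.70 CPM in old replicate 2 (122 reads). Old replicate 1 was 6.63 times old replicate 2, and old replicate 2 was above both young livers, although its 95% interval (1.41 to 2.03 CPM) overlapped that of young replicate 1 (1.02 to 1.49 CPM). The log2 fold change was 1.51 (SE 0.87, 95% interval -1.14 to 4.15, limma adjusted p = 0.509), and it was 0.41 without old replicate 1 and 2.60 without old replicate 2.

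TAP2 (ENSSSCG00000025593), the partner chain of TAP1, was listed at 0 in young replicate 1 and at 0.520 CPM in young replicate 2 (45 reads). It was at 12.8 CPM in old replicate 1 (790 reads) and at 0.487 CPM in old replicate 2 (35 reads). Only old replicate 1 stood apart, 26.4 times above old replicate 2, and old replicate 2 lay between the young livers. The count of 0 in young replicate 1 allows up to 0.0327 CPM, a one-sided limit of 3 reads that covers counting error only. Zeros in mRNAs at 1 CPM or more in each other liver were more frequent in young livers (41 and 106) than in old livers (3 and 5). TAP2 was not among these mRNAs, and why it was listed at 0 was not tested. The log2 fold change of TAP2 was 1.88 (SE 1.29, 95% interval -2.03 to 5.79, limma adjusted p = 0.573), and it was 0.27 without old replicate 1. The interval is the widest of the 5 genes.

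Counting by position, 4 of the 5 genes had both old livers above both young livers, against 24.4% of all mRNAs tested. Old replicate 1 exceeded the young livers for all 5 (35.5% of all mRNAs), and old replicate 2 did so for 4 (34.7% of all mRNAs). The median log2 fold change over the 5 genes was 1.24, beside -0.02 over all mRNAs tested, of which 4.93% were above 1. Without old replicate 1 the median of the 5 was 0.50 and without old replicate 2 it was 1.28. With 2 against 2 livers, an exact permutation test cannot give a two-sided p-value below 0.333.

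**Figure D2:**
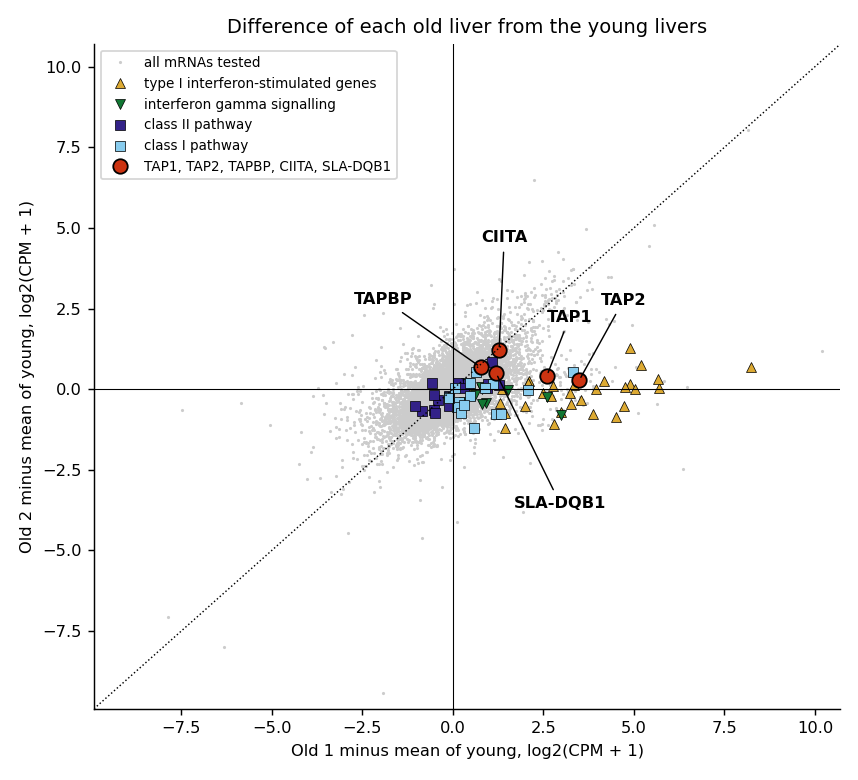
Difference of old replicate 1 (horizontal axis) and of old replicate 2 (vertical axis) from the mean of the young livers, in log2(CPM + 1), for all 16898 mRNAs tested (grey) and the named gene lists, with a dotted line where both old livers differ equally. CIITA and TAPBP (0.77 and 0.68) lie near the dotted line, while TAP1 (2.60 and 0.41) and TAP2 (3.49 and 0.27) lie to the right with the interferon-stimulated genes.

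The other genes of the class I pathway that could be joined numbered 18 of 29 symbols, of which 17 were tested. Of these, 10 were higher and 7 lower on average in old livers, with a median log2 fold change of 0.14 and no call in limma. Without old replicate 1 that median was -0.24. After TMM scaling 12 were higher and 5 lower, with CALR and UGGT1 turning to higher. Old replicate 1 exceeded the young livers for 12 of the 17, while old replicate 2 exceeded them for 4 and lay below them for 9. The 8 that were above only in old replicate 1, a pattern of 11.2% of all mRNAs tested, were PSMB9, PSME1, PSME2, ERAP1, ERAP2, PDIA3, HSPA5 and UGGT1.

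PSMB9, an interferon-inducible subunit of the immunoproteasome, put the 4 livers in the same order as TAP2. It was listed at 0 in young replicate 1 and measured 1.76 CPM in young replicate 2. Old replicate 1 had 15.6 CPM and old replicate 2 had 1.38 CPM. PSMB9 was among the 41 mRNAs listed at 0 in young replicate 1 that had 1 CPM or more in each other liver. There were 106 such mRNAs for young replicate 2, and 3 and 5 for the old replicates. ERAP2, an endoplasmic reticulum aminopeptidase that trims peptides, measured 0.468 and 0.116 CPM in young sows, compared with 4.40 and 0.265 CPM in old replicates 1 and 2. PSME2, a subunit of the proteasome activator PA28, measured 40.6 and 40.2 CPM in young sows. It was at 93.0 CPM in old replicate 1 and at 23.1 CPM in old replicate 2, so the old livers lay on opposite sides of the young livers. PSMB8, another immunoproteasome subunit, was listed at 0 in 3 livers and had 2 reads in old replicate 1, so it was not tested.

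The class I genes with both old livers above both young livers were PSME3, TAPBPL, FCGRT and IRF2. In old replicate 2, PSME3, TAPBPL and IRF2 differed from the nearer young liver by less than counting error. PSME3 had 1.98 CPM there (142 reads) against 1.82 CPM in young replicate 1 (167 reads). IRF2 had 7.24 CPM there (520 reads) against 7.16 CPM in young replicate 2 (620 reads). FCGRT, the receptor that recycles IgG and albumin, measured 73.6 and 71.7 CPM in young sows, compared with 114 and 106 CPM in the old livers (log2 fold change 0.60, SE 0.12, limma adjusted p = 0.230). It was the only gene of the 17 tested with an unadjusted p-value under 0.05 in limma, a level reached by 2654 of all 16898 mRNAs. TAPBPL, a tapasin-related protein, measured 2.60 and 3.489 CPM in young sows, compared with 7.64 and 3.494 CPM in the old livers. The general chaperones CALR, CANX and PDIA3, which fold class I and many other proteins, had log2 fold changes of -0.12, -0.23 and -0.25, of which that of CALR turned positive after TMM scaling. For each of them old replicate 2 was below both young livers.

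**Figure D3:**
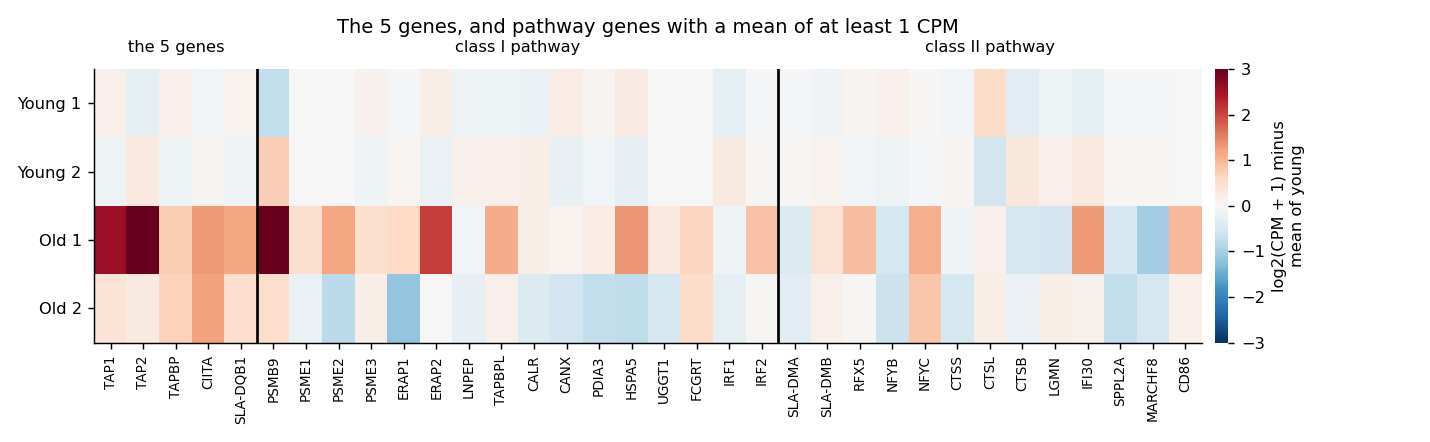
Difference of each liver from the mean of the young livers in log2(CPM + 1), on a colour scale from -3 to 3 that saturates for TAP2 and PSMB9 in old replicate 1, for the 5 genes and for pathway genes with a mean of at least 1 CPM. Red marks higher and blue lower values. Old replicate 1 is red over TAP1, TAP2, PSMB9 and ERAP2, and both old livers are red over CIITA and TAPBP.

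Of the class II list, 16 of 31 symbols were joined and tested. Their median log2 fold change was -0.17, with 7 higher and 9 lower (8 and 8 after TMM scaling, where LGMN turned to higher). None was called in limma (0% of all mRNAs). Of the 16, 6 had an unadjusted p-value under 0.05 in limma (2654 of all 16898 mRNAs). Of these 6, NFYC was higher in old livers, and SLA-DMA, NFYA, NFYB, SPPL2A and MARCHF8 were lower. Both old livers lay below both young livers for 7 of the 16 (25% of all mRNAs tested) and above for 3, namely SLA-DMB, NFYC and CD86. The 7 were SLA-DMA, SLA-DOA, NFYA, NFYB, CTSS, SPPL2A and MARCHF8. Some lay close to the young range. In old replicate 2, SLA-DMB and CD86 were 1.03 and 1.21 times the higher young liver. CTSS was at 51.5 CPM in old replicate 1 against 52.8 CPM in young replicate 1.

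Among the other class II molecules and loading factors, SLA-DMB was above in both old livers, and SLA-DMA and SLA-DOA were below in both. The differences of SLA-DMB in old replicate 2 and of SLA-DOA in old replicate 1 from the nearer young liver were less than counting error. HLA-DRA (ENSSSCG00000001453), the human symbol under which SLA-DRA is listed, is not counted among the 5 and was looked at after its values had been seen. It measured 62.9 and 57.7 CPM in young sows. Old replicate 1 had 146 CPM and old replicate 2 had 47.8 CPM, so the old livers lay on either side of the young livers. Its log2 fold change of 0.47 (SE 0.64, limma adjusted p = 0.781) turned to -0.33 without old replicate 1. SLA-DMA and SLA-DMB encode the chains of DM, which exchanges peptides on class II. SLA-DMA measured 5.62 and 5.90 CPM in young sows, compared with 4.05 and 4.32 CPM in the old livers (log2 fold change -0.38, SE 0.11, limma adjusted p = 0.289). SLA-DMB measured 14.3 and 16.7 CPM in young sows, compared with 21.1 and 17.2 CPM in the old livers. The chains of DO, a DM inhibitor, were low, with SLA-DOA between 0.362 and 0.612 CPM and HLA-DOB, also listed under its human symbol, between 0.109 and 0.251 CPM.

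The factors that assemble with CIITA on class II promoters differed in direction, and none was called in limma, which called no mRNA. The NF-Y subunits NFYA and NFYB were lower in both old livers, with log2 fold changes of -0.76 and -0.58 (adjusted p = 0.242 and 0.275, limma). The NF-Y subunit NFYC measured 1.81 and 1.68 CPM in young sows, compared with 4.84 and 3.87 CPM in the old livers. Its log2 fold change was 0.96 (SE 0.15, limma adjusted p = 0.216), and DESeq2 called it as higher while edgeR's exact test did not. RFX5, a subunit of the RFX complex, measured 1.61 and 1.33 CPM in young sows, compared with 3.72 and 1.52 CPM in old replicates 1 and 2. The lysosomal proteases CTSS and CTSB, which degrade antigen and the invariant chain, had log2 fold changes of -0.32 and -0.35 (adjusted p = 0.545 and 0.677, limma). The thiol reductase IFI30 was highest in old replicate 1, at 9.18 CPM against 2.42 to 4.17 CPM in the other livers. CD86, a costimulatory ligand, measured 1.02 and 1.06 CPM in young sows, compared with 3.02 and 1.28 CPM in the old livers.

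The chromosomal order of the genes was taken from the RefSeq annotation of Sscrofa11.1 and not from the build of the table. Only protein-coding genes whose RefSeq symbol matched a symbol of the table were placed, and these are the named genes here. Among them, TAP2, PSMB8, TAP1 and PSMB9 lay beside each other, with SLA-DQB1 next to TAP2. HLA-DRA and HLA-DOB were not placed in this stretch, so other genes may lie between those called neighbours. BRD2, a bromodomain protein on the far side of PSMB9, lay between 9.98 and 14.5 CPM in the young livers, and both old livers fell within that range. Of the 14 named genes from SLA-DQB1 to RING1, the differences of old replicate 1 were 3.49 for TAP2, 3.32 for PSMB9, 2.60 for TAP1, 1.44 for the zinc transporter SLC39A7 and 1.19 for SLA-DQB1 on log2(CPM + 1). The other 9 were between -1.25 (HSD17B8) and 0.43 (SLA-DMB). DAXX, the gene next to TAPBP and a chromatin chaperone, measured 2.69 and 2.66 CPM in young sows, compared with 18.7 and 4.47 CPM in old replicates 1 and 2. CLEC16A, next to CIITA, had 17.9 CPM or more in young sows, compared with 16.0 and 16.4 CPM in old sows. It was the only lower gene of the 4 tested within 3 named genes on either side of CIITA, and the other 3 were above the young livers in both old livers. Of these NUBP1, an iron-sulfur cluster assembly factor, had 1.41 and 1.32 CPM in young sows against 2.60 and 2.30 CPM in old sows. The others, TNP2 and SOCS1, were low, at or below 0.699 and 0.374 CPM in every liver. Within 3 named genes of any of the 5 there were 15 tested neighbours, some of them, such as PSMB9 and SLA-DMB, in the lists above. Of the 15, 11 were higher and 4 lower on average in old livers (47.1% of all mRNAs tested were higher).

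**Figure D4:**
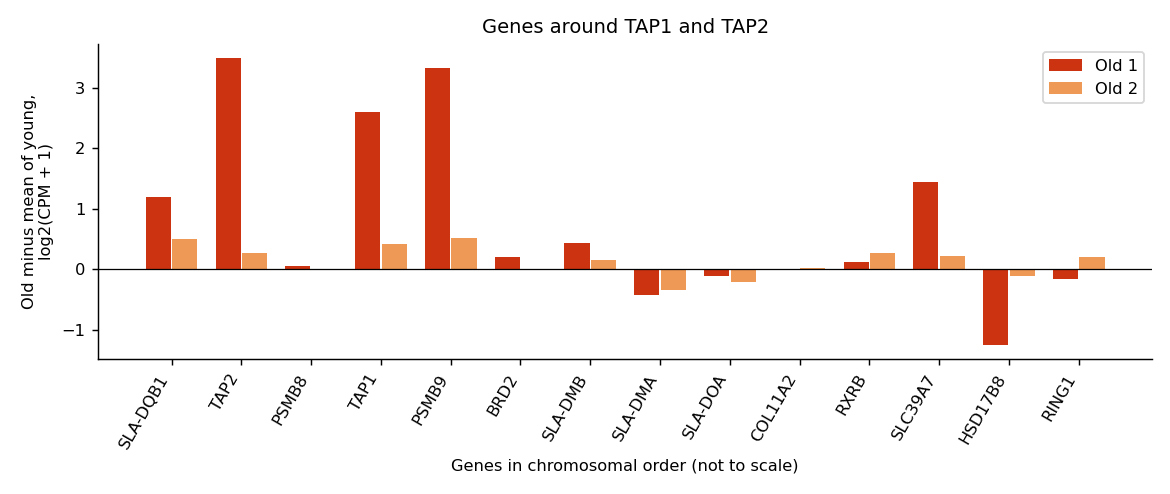
Difference of old replicate 1 (red) and old replicate 2 (orange) from the mean of the young livers, in log2(CPM + 1). The 14 genes from SLA-DQB1 to RING1 whose RefSeq symbol matched the mRNA table are in RefSeq order, spaced evenly and not by distance. Genes without a match, HLA-DOB among them, are not drawn. The tall bars of old replicate 1 stand over TAP2, TAP1 and PSMB9, and BRD2 beside them shows almost none.

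Most interferon signalling and response genes of the lists were highest in the liver where TAP1 and TAP2 were highest. Of 11 genes of interferon gamma signalling, old replicate 1 exceeded the young livers for 10 (35.5% of all mRNAs tested) and old replicate 2 for 1 (34.7%). IFNGR1, a chain of the interferon gamma receptor, was at 12.5 CPM in old replicate 1 and between 4.34 and 6.32 CPM in the other livers. The receptor kinase JAK1 measured 22.5 and 14.1 CPM in young sows, compared with 12.8 and 13.6 CPM in the old livers. IRF1, which binds class I promoters, was within the young range in both old livers, at 5.66 and 4.98 CPM. Of 30 type I interferon-stimulated genes, old replicate 1 exceeded the young livers for all 30 and old replicate 2 for 7, beside the same 35.5% and 34.7% of all mRNAs. RSAD2, MX1 and IFIT1, antiviral effectors, reached 618, 269 and 231 CPM in old replicate 1 and stayed at or below 2.28, 7.28 and 4.66 CPM in the other livers. Their part in the levels of TAP1 and TAP2 was not tested.

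**Figure D5:**
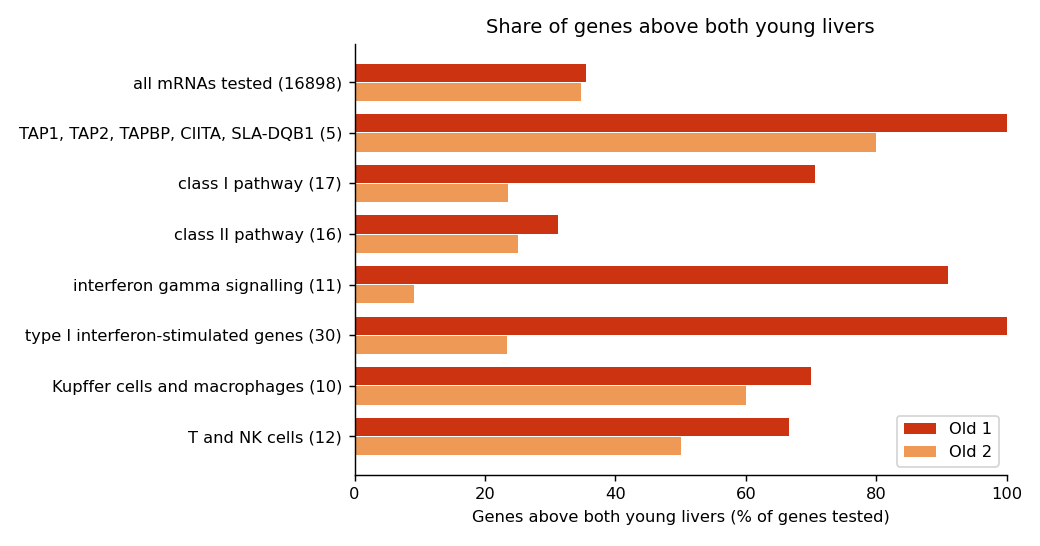
Percent of the tested genes of each list (number in brackets) above both young livers in old replicate 1 (red) and in old replicate 2 (orange), with all mRNAs tested as the background. TAP1, TAP2, TAPBP, CIITA and SLA-DQB1 reach 100% and 80%, and the interferon lists are high in old replicate 1 alone.

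Markers of cells that carry MHC class II were examined beside these values. Of 10 Kupffer cell and macrophage markers, 8 were higher on average in old livers (47.1% of all mRNAs tested), 5 were above in both old livers and 2, MSR1 and ITGAM, were below in both. Their summed level was 255 and 287 CPM in the young livers and 427 and 397 CPM in the old livers, of which the complement gene C1QA alone gave between 181 and 255 CPM. SPI1, a myeloid transcription factor, was called as higher by edgeR's exact test and DESeq2, and CD14 by DESeq2. The exact test called 2.68% of all mRNAs tested as higher, and DESeq2 called 4.04%. SPI1 measured 1.85 and 1.94 CPM in young sows, compared with 26.5 and 5.78 CPM in old replicates 1 and 2. CD68 measured 18.9 and 15.9 CPM in young sows, compared with 28.9 and 27.4 CPM in the old livers. MARCO had 1.58 and 1.34 CPM in young against 2.28 and 8.62 CPM in old livers, and CSF1R had 2.48 and 5.05 against 4.14 and 6.63 CPM. The scavenger receptor MSR1 had 6.04 and 6.53 CPM in young against 4.68 and 4.16 CPM in old livers. The 6 B and plasma cell markers summed to 3.32 and 8.72 CPM in young and 13.5 and 4.15 CPM in old livers. MZB1, a plasma cell chaperone, gave 11.4 CPM of the sum in old replicate 1, and CD22 gave 4.22 CPM of that in young replicate 2. CD79B was below both young livers in both old livers and MS4A1 stayed at or below 0.635 CPM. The 5 dendritic cell markers summed to at most 3.52 CPM, with BATF3 listed at 0 in all 4 livers and FLT3 and XCR1 at or below 0.537 CPM. The 12 T and NK cell markers summed to 69.0 and 48.5 CPM in young and 232 and 49.5 CPM in old livers, with CD247 alone at 206 CPM in old replicate 1. CD3D was between 1.02 and 2.84 CPM and CD2 between 2.68 and 8.82 CPM. The part of these cells in the levels of CIITA, TAPBP and SLA-DQB1 was not tested.

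Hepatocyte markers (9, among them ALB, APOA1 and APOB) were present in every library and summed to 47480 and 53004 CPM in young and 33107 and 39170 CPM in old livers. ALB alone gave 29468 and 35205 CPM in young and 16534 and 23978 CPM in old livers. Of the 9, 2 were higher and 7 lower on average in old livers. All mRNAs tested summed to 408824 and 428828 CPM in young and 365170 and 346101 CPM in old livers. The sums of the remaining lists were 43.4 and 39.0 against 69.3 and 46.4 CPM for 5 endothelial markers (PECAM1, KDR, STAB1), 19.2 and 38.5 against 14.6 and 50.6 CPM for 6 stellate cell and fibroblast markers (COL1A2, COL3A1, ACTA2), and 622 and 429 against 306 and 405 CPM for 3 erythroid markers (HBB, ALAS2, SLC4A1). The 4 cholangiocyte markers (EPCAM, SOX9, CFTR) summed to at most 1.68 CPM. None of these lists held a gene called in limma, which called 0% of all mRNAs.

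The genes most like the median profile of the 5 over the 4 livers were sought among 2530 other mRNAs with a mean of at least 10 CPM. The nearest, by Euclidean distance of centred log2(CPM + 1) values, were COPE (0.233), TNIP1 (0.265), ENSSSCG00000023053 (0.278), ENSSSCG00000021004 (0.285) and PCID2 (0.293), against 0.285 to 2.03 for the 5 genes themselves. COPE, a coatomer subunit, measured 29.6 and 29.3 CPM in young sows, compared with 67.3 and 47.6 CPM in the old livers. TNIP1, an inhibitor of NF-kappaB signalling, measured 8.21 and 6.85 CPM in young sows, compared with 20.2 and 13.0 CPM in the old livers. With 4 livers, such likeness describes these samples alone.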

How the data were processed

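Liver RNA of 4 sows was sequenced by the authors as directional, rRNA-depleted paired-end libraries. Per the labels and the methods of the study, reads were aligned to Sscrofa10.2 with TopHat2 2.0.14, transcripts were assembled with StringTie 1.2.3 and values were named TPM from Salmon 0.6.0. The deposited values are treated here as CPM made by the authors, because 100% of the values above 0 lay within 0.1 read of a whole multiple of 1 step per library, which gave the whole reads. Whether counting used strand is not given in the sources used here. Replicates were not pooled.

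Symbols came from the Ensembl table given for pig, which named 11654 of the 21607 identifiers. Old and young livers (2 libraries each) were compared with limma 3.58.1 in R 4.3.3 on log2(CPM + 1), and the test covered the 16898 mRNAs detected in 2 or more libraries. P-values were adjusted by the method of Benjamini and Hochberg. Calls needed an adjusted p-value under 0.05 and an absolute log2 fold change above 1. edgeR 4.0.16 and DESeq2 1.42.0 were run on the recovered reads as alternatives. All tests were tested on simulated counts. Python 3.11.15 with pandas 2.3.3 and matplotlib 3.10.9 was used for summaries.

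The genes and lists were chosen with earlier results of these data known. Named were the 5 genes, pathway genes with a mean of at least 1 CPM, the 3 interferon genes per list with the largest mean and the first 3 markers per list. Other names, and the chromosomal neighbours, were chosen after values were seen. Alternatives covered the pseudocount, filter, scaling, variance model, replicate block, test and leaving out each library. Sequences and promoter motifs were not analysed here. The lncRNA, circRNA and miRNA tables were not used here. Single values of some genes of the lists are not reported here.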

Additional observations from a re-analysis of the deposited data

How the results depend on the processing

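The 5 genes kept the higher direction in old livers under all 14 alternatives in which they were tested (69 values). Of these values, the 2 that passed the thresholds were those of CIITA in edgeR's exact test (4.72) and DESeq2 (4.73). For 4 of the 5 genes both old livers lay above both young livers. Leaving out a library, or changing the pseudocount or filter, could therefore not reverse the direction of those 4. CIITA was not tested where a mean of at least 1 CPM was required, since its mean is lower. The number of mRNAs called was 0 in limma and 2 with that filter, 531 in edgeR's exact test and 880 in DESeq2, and the cause was not tested. The median log2 fold change of the 5 genes was 1.24 in limma and 2.83 in each test on reads (edgeR's quasi-likelihood test, its exact test and DESeq2), which add no pseudocount of 1 CPM. With 1 library left out it ranged from 0.50 to 1.31. The 0 calls of limma with a library left out are no sign of stability, since limma made none with all 4. HLA-DRA ranged from -0.33 (without old replicate 1) to 1.27, and HLA-DOB from -0.013 (without old replicate 2) through 0.15 (without old replicate 1) to 0.75 (edgeR's exact test).

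With 1 library left out, the median of the class I list ranged from -0.24 to 0.48, of the class II list from -0.32 to -0.07, of interferon gamma signalling from -0.23 to 0.80 and of type I interferon-stimulated genes from 0.01 to 3.30. The lowest values, other than for class II, were those without old replicate 1. Rescaling to the same total of mRNA reads moved the median of all mRNAs by 0.11, and the median of the 5 genes to 1.99. Labels give both groups the replicate numbers 1 and 2, but the sows were unrelated and deviations of same-numbered livers correlated at 0.09 across 16898 mRNAs, so the numbers were not taken as pairs. A replicate block, which cannot move a fold change in this balanced design, gave 0 calls and a median of 1.24 for the 5 genes. Values below 3 reads per library (0.0327 to 0.0487 CPM) are at the limit of detection, as in young replicate 1 for CIITA and TAP2.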
